A study of Mus musculus with 18 samples.

Results

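The genes of condensin and of topoisomerase II were followed through 6 genotypes of primary mouse embryonic fibroblasts (MEFs). The members were chosen by name: the SMC core genes Smc2 and Smc4, the condensin I subunits Ncapd2, Ncapg and Ncaph, the condensin II subunits Ncapd3, Ncapg2 and Ncaph2, and the topoisomerase II genes Top2a and Top2b. All 10 were among the 51912 genes of the deposited table, and all 10 passed the filter on low counts that left 15710 genes for testing.

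The cells were passage 1 primary MEFs, kept at 5% oxygen, from embryos of C57BL/6 background that were Pole4+/+ or Pole4-/- and were Trp53+/+, Trp53+/- or Trp53-/-, with 3 libraries of bulk RNA for each of the 6 genotypes. Pole4 encodes an accessory subunit of DNA polymerase epsilon, and Trp53 encodes the tumor suppressor p53. The study asked how the loss of 1 or both copies of Trp53 changes transcription in cells with and without POLE4. The labels do not say whether the 3 libraries of a genotype came from separate embryos, so the p-values below measure the spread between these libraries, which may be technical in part.

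Condensin is a ring-shaped ATPase that extrudes loops of DNA and compacts chromosomes for mitosis. SMC2 and SMC4 form its core, which joins one of 2 sets of non-SMC subunits: NCAPD2, NCAPG and NCAPH make condensin I, which reaches chromosomes after nuclear envelope breakdown, and NCAPD3, NCAPG2 and NCAPH2 make condensin II, which is nuclear throughout the cell cycle. Topoisomerase II passes one DNA duplex through a break in another to untangle sister chromatids. Its alpha form, from Top2a, is made mostly in cycling cells, and its beta form, from Top2b, is made in dividing and resting cells alike.

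The sequences before the starts of these genes were searched for the letters of elements that are common in promoters of cell-cycle genes. The cell-cycle genes homology region (CHR; TTTGAA or TTCGAA), the CCAAT box (CCAAT) and E2F-type letters (TTTCCCGC, TTTGGCGC, TTCCCGCC or TTTCGCGC) were looked for on both strands of the 250 bases before each RefSeq start (build GRCm38.p6). A promoter was found for 9 of the 10 members, all but Smc4. Below, 4 of them are shown 5′ to 3′ on the gene's strand, with every match in capitals. Top2a is shown because it held the most matches, Top2b because its level hardly moved across genotypes, Smc2 as the promoter of a core subunit, and Ncaph because its level moved while its window held none of these letters.
Top2a, chr11:99024190-99024439, minus strand: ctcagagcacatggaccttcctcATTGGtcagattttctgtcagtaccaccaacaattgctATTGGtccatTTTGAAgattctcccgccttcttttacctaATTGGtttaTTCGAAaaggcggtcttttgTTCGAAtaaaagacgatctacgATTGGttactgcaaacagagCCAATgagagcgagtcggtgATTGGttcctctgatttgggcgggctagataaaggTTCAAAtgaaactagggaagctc
Top2b, chr14:16364956-16365205, plus strand: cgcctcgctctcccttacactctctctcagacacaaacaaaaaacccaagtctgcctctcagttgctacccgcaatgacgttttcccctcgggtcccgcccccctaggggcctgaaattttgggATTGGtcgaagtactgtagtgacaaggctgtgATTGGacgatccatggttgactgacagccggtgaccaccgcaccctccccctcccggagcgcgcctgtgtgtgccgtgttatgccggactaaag
Smc2, chr4:52438971-52439220, plus strand: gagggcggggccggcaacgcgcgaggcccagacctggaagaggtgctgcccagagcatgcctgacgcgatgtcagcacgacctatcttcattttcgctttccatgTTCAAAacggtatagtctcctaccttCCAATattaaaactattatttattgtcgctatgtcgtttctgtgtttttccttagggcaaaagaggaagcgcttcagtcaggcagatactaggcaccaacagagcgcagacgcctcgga
Ncaph, chr2:127133955-127134204, minus strand: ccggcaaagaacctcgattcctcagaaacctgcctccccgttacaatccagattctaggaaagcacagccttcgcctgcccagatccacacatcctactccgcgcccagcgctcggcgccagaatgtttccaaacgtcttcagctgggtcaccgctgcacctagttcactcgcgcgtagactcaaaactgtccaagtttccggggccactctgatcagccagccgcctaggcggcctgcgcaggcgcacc

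The Top2a window held 6 CCAAT matches and 4 CHR matches, and no E2F-type match. At least 6 CCAAT matches were present in 19 of the 32851 promoters of the table, or 0.0578% of them. Ncapd2 held 3 CCAAT matches, 1 CHR match and 1 E2F-type match in the last 8 bases before its start. Smc2 and Ncapg each held 1 CHR and 1 CCAAT match, and Ncaph2 held 1 CHR match. Ncapg2 held 1 CHR match and 2 E2F-type matches that overlap in a single stretch and count as one place. Top2b held 2 CCAAT matches and neither of the other elements. The table lists 2 starts for Ncapd3, and the first of them, at the start of the gene, held no match. Of the 10 windows, 7 held a CHR match, 5 a CCAAT match and 2 an E2F-type match, while over all promoters of the table the shares were 17.1%, 33.8% and 2.92%. The 7 include the window of the second Ncapd3 start, which lies inside the gene. Its CHR match is 249 to 244 bases before that start. A match of letters describes the sequence and is not evidence that a factor binds there.

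**Figure D1:**
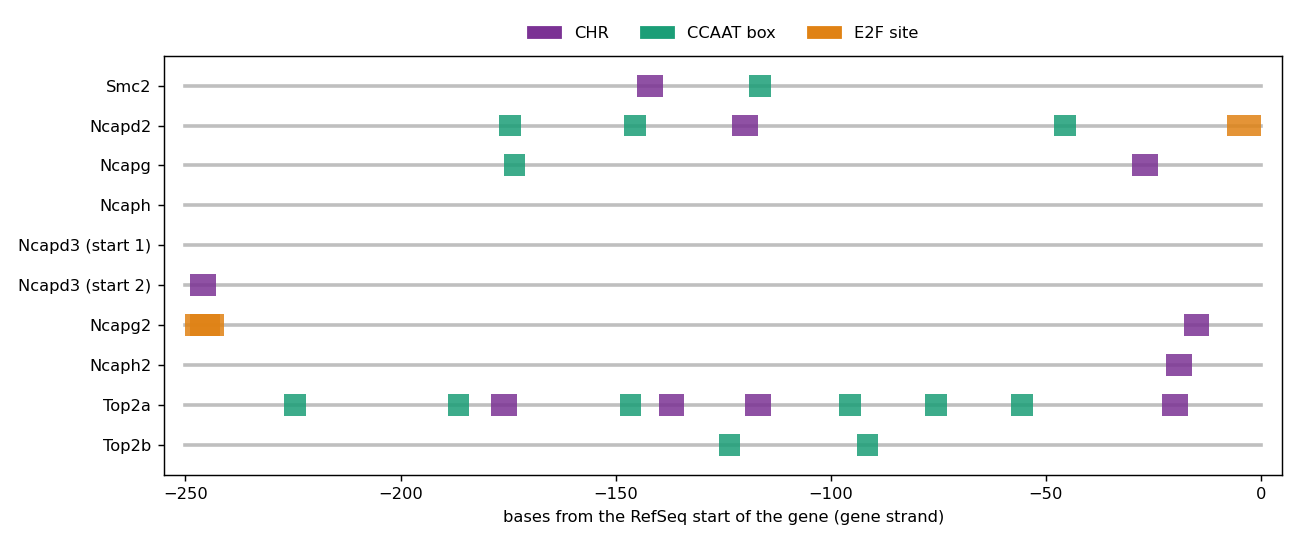
Matches to the CHR, CCAAT and E2F-type letters in the 250 bases before each RefSeq start, drawn to scale along the gene's strand with the start at 0. Top2a holds 10 matches spread over the window, Top2b holds 2, and Ncaph and the first start of Ncapd3 hold none.

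The genotypes were checked first. Levels are given as CPM, the count divided by a library's TMM-scaled total. Trp53 RNA was at 90.8 ± 4.81 CPM (mean ± SD, n = 3) in Pole4+/+ Trp53+/+ cells, 58.1 ± 1.70 in Pole4+/+ Trp53+/- cells and 10.8 ± 1.83 in Pole4+/+ Trp53-/- cells. In Pole4-/- cells it was 69.1 ± 4.40, 52.4 ± 3.67 and 11.3 ± 1.15 in the same order. Cdkn1a, which encodes the p53-dependent CDK inhibitor p21, was between 5.17 and 12.0 CPM in the 6 Trp53-/- libraries and between 149 and 363 in the other 12. Pole4 RNA was between 9.26 and 12.0 CPM in the 9 Pole4-/- libraries and between 14.2 and 26.4 in the 9 Pole4+/+ libraries, so reads of the gene remained in cells labelled Pole4-/-. The lowest Pole4+/+ value, 14.2, belonged to the first Pole4+/+ Trp53-/- library.

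Libraries held from 9535971 to 35319918 counts, and ribosomal RNA genes took between 0.968% and 42.5% of them. Xist and Y-linked genes marked 11 libraries as female and 7 as male. All Pole4+/+ Trp53+/+ and Pole4+/+ Trp53-/- libraries were female, all Pole4+/+ Trp53+/- libraries were male, and each Pole4-/- genotype was mixed. The 10 fibroblast markers summed to between 13720 and 30960 CPM, led by Col1a1, Fn1 and Col1a2. Their sum was lowest in Pole4-/- Trp53-/- cells (13720 to 16520) and highest in Pole4-/- Trp53+/+ cells (24890 to 30960), the opposite ends from those of the members below, and the part of this shift in their differences was not tested. Markers of other cells were lower but not all near 0. Of 5 genes each, macrophage markers summed to between 3.96 and 44.4 CPM (Lyz2 highest, with a median of 10.3, and Ptprc at 0.776), endothelial markers to between 1.64 and 6.17 (Kdr 2.32, Pecam1 0.146) and erythroid markers to at most 0.647, with all 5 medians at 0. Epithelial markers summed to between 2.10 and 20.4 CPM (Krt18 3.61, Epcam 0.0690), skeletal muscle markers to between 19.8 and 79.5 (Des 33.7, Myod1 0.161) and neuron markers to between 49.1 and 87.6 (Tubb3 50.8, Map2 12.3, Snap25 0). In bulk RNA, fewer cells of a type, such as cells in mitosis, and less RNA per cell cannot be told apart.

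Per kilobase of exon, the core subunits and Top2a stood highest. In Pole4+/+ Trp53+/+ cells Smc4 was at 31.2 ± 3.94 CPM per kilobase and Top2a at 29.2 ± 4.43 (SD, n = 3), values that do not differ beyond their spread. Smc2 followed at 20.1 ± 2.83 and Top2b at 15.6 ± 0.824. Among the subunits that distinguish the complexes, Ncapd2 (13.3 ± 2.17) and Ncaph2 (12.9 ± 1.17) were close, Ncaph, Ncapg and Ncapg2 lay between 5.18 and 6.23, and Ncapd3 was lowest at 2.92 ± 0.280.

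The 10 genes lie on 10 different chromosomes, here given in GRCm38 with the GENCODE gene bounds. Smc2 is at chr4:52439243-52488260 and Smc4 at chr3:69004738-69034623, with the microRNA genes Mir15b and Mir16-2 inside the Smc4 gene but outside its exons. Of condensin I, Ncapd2 is at chr6:125168007-125191701, Ncapg at chr5:45669919-45700546 and Ncaph at chr2:127103809-127133954. Of condensin II, Ncapd3 is at chr9:27030175-27095315, Ncapg2 at chr12:116405402-116463731 and Ncaph2 at chr15:89355719-89372826. Top2a is at chr11:98992943-99024189 and Top2b at chr14:16365179-16435462.

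Across genotypes, 9 of the 10 genes shared their lowest genotype. Top2a was at 299, 270 and 220 CPM in the Pole4+/+ Trp53+/+ libraries and at 159, 146 and 155 in the Pole4-/- Trp53+/+ libraries. In Trp53+/- cells it was at 329, 292 and 295 with Pole4 and at 255, 284 and 220 without it. In Trp53-/- cells it was at 295, 427 and 462 with Pole4 and at 470, 472 and 530 without it. The 3 Pole4-/- Trp53+/+ libraries thus lay below all others, the 3 Pole4-/- Trp53-/- libraries above all others, and the first Pole4+/+ Trp53-/- library lay among the Pole4+/+ Trp53+/+ and Trp53+/- libraries. The group means of 9 members, all but Top2b, were lowest in Pole4-/- Trp53+/+ cells. The means of 9 members were highest in Pole4-/- Trp53-/- cells, and that of Ncaph2 was highest in Pole4+/+ Trp53-/- cells. Between these ends the order of neighbors was mostly within the spread: for Top2a the ranges of Pole4-/- Trp53+/- and Pole4+/+ Trp53+/+ cells overlapped, as did those of Pole4+/+ Trp53+/+ and Pole4+/+ Trp53+/- cells and those of Pole4+/+ Trp53+/- and Pole4+/+ Trp53-/- cells.

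**Figure D2:**
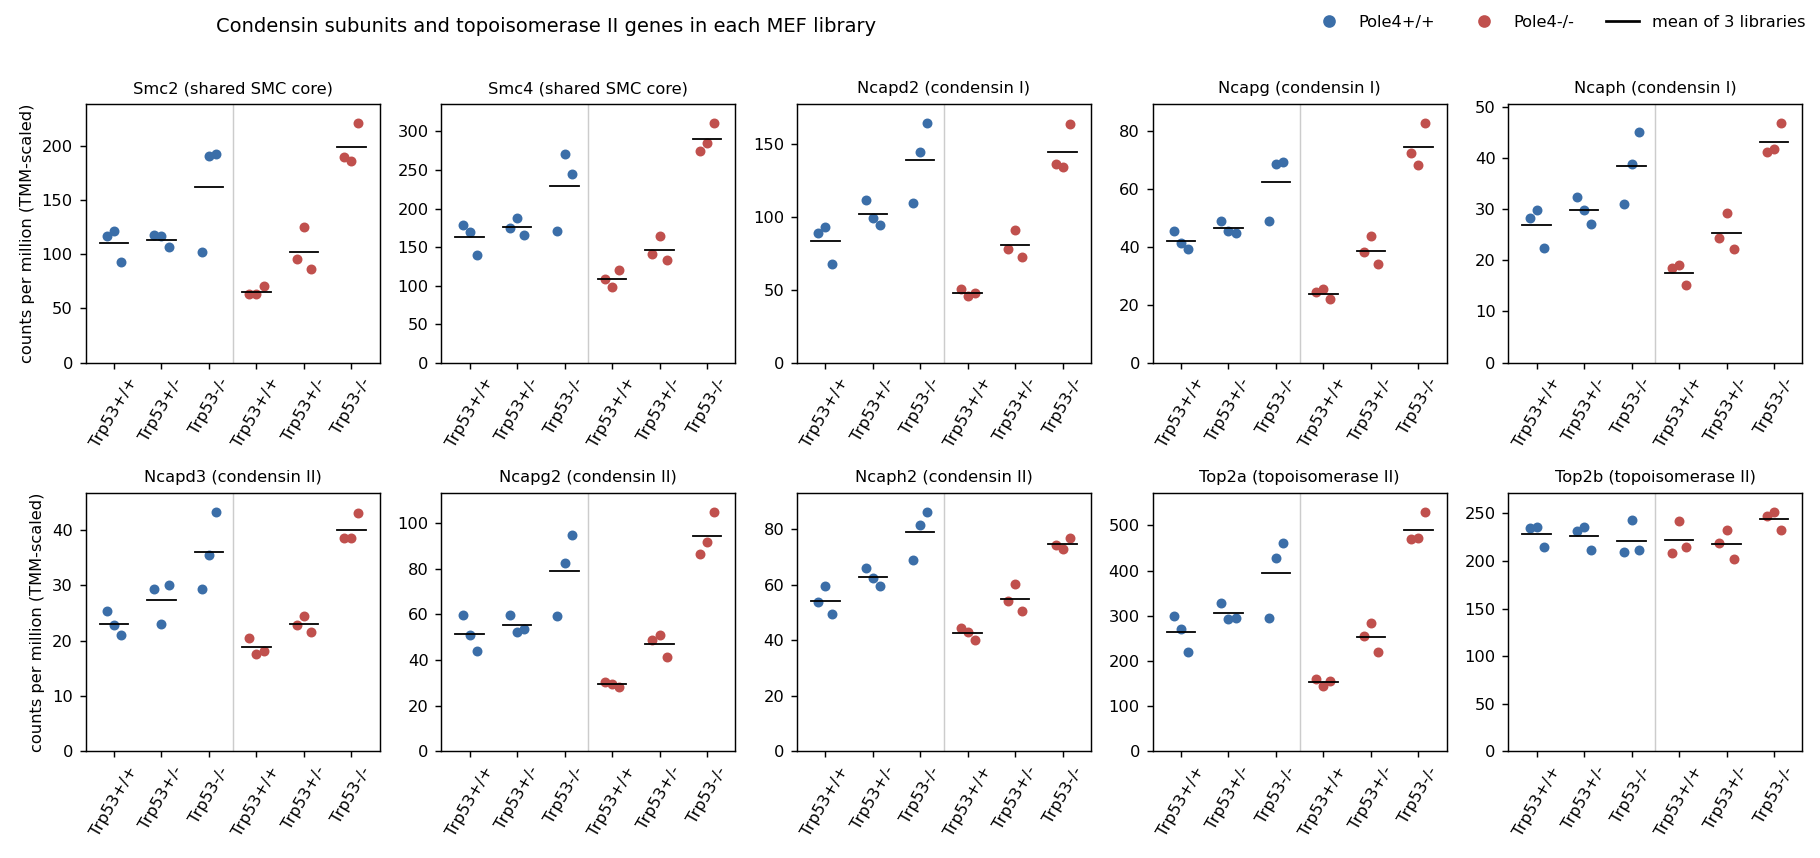
CPM (TMM-scaled) of each gene in the 18 libraries (points), with the mean of the 3 libraries of a genotype (black bar), for Pole4+/+ cells on the left of each panel and Pole4-/- cells on the right. Apart from Top2b, each gene is lowest in Pole4-/- Trp53+/+ cells and high in Trp53-/- cells, and each vertical axis has its own scale starting at 0.

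Most of these genes were lower with the loss of Pole4 alone. In Trp53+/+ cells, 7 of the 10 members were called lower in Pole4-/- than in Pole4+/+ MEFs (edgeR quasi-likelihood test, Benjamini-Hochberg adjusted p under 0.05 over all 15710 genes), where 2.7% of all genes tested were called lower. Both core subunits fell, as did all 3 condensin I subunits, 1 of the 3 condensin II subunits and 1 of the 2 topoisomerases. The median log2 fold change of the 10 genes was -0.68, beside 0.01 for all genes tested.

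Ncapg, the HEAT-repeat subunit of condensin I, was at 45.4, 41.2 and 39.2 CPM in Pole4+/+ Trp53+/+ libraries and at 24.3, 25.2 and 21.8 in Pole4-/- Trp53+/+ libraries. The groups did not overlap and differed by log2 -0.81 ± 0.13 (± SE; adjusted p = 0.0144). Top2a was 1.72-fold lower (log2 -0.78 ± 0.15, adjusted p = 0.0203). Ncapd2, the other HEAT-repeat subunit of condensin I, and Ncapg2, the condensin II counterpart of Ncapg, changed by log2 -0.79 ± 0.15 and -0.81 ± 0.15. Smc2 (-0.75 ± 0.20), Ncaph, the kleisin that closes the condensin I ring (-0.60 ± 0.15), and Smc4 (-0.58 ± 0.15) were also called, with adjusted p-values of 0.0455, 0.0391 and 0.0415.

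The other condensin II subunits had smaller values in this comparison. Ncaph2, the condensin II kleisin, was at 53.8, 59.3 and 49.5 CPM with Pole4 and at 44.5, 43.1 and 40.02 without it, which did not overlap but missed the threshold (log2 -0.35 ± 0.10, adjusted p = 0.0523). Ncapd3, the HEAT-repeat subunit that pairs with Ncapg2, was at log2 -0.29 ± 0.14 (adjusted p = 0.189). Whether these smaller values differ from those of the other subunits was not tested gene by gene. Over the members, every Pole4-/- library lay below every Pole4+/+ library for 9 of the 10 genes, all but Top2b, where this held for 21.7% of all genes tested.

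The Pole4-/- Trp53+/+ libraries were 1 female and 2 male and the Pole4+/+ Trp53+/+ libraries all female. With log2 Xist as a covariate for sex the 9 genes other than Top2b kept negative values, from -0.80 to -0.25, but none passed the threshold (adjusted p from 0.0936 to 0.409). In that fit 3 of all 15710 genes were called, against 626 as reported, so the loss of calls was not particular to these genes. The single female Pole4-/- Trp53+/+ library lay below the mean of the 3 female Pole4+/+ Trp53+/+ libraries for all 9 of these genes, by log2 0.17 to 0.80. The call also rested on single libraries, since between 0 and 8 members, and between 8 and 799 of all genes, were called when each library was left out in turn. The count fell to 0 with the first or the second Pole4+/+ Trp53+/+ library removed, to 0 with the third of the Pole4-/- Trp53+/+ libraries removed and to 1 with the second of these removed. The library numbered 3 had the largest share of ribosomal RNA, 42.5%, and the shares were 5.81% to 11.2% in the Pole4+/+ and 7.11% to 42.5% in the Pole4-/- libraries. With ribosomal RNA genes left out of the scaling 8 members were called, with 764 of all genes. Of the 10 fibroblast markers 9 had positive values in this comparison (median log2 0.36) and 1, Fn1, was called higher (0.70 ± 0.18), and no marker of the other cell types was called. Their part was not tested.

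The loss of 1 copy of Trp53 in Pole4-/- cells went with higher levels of 5 of the 10 members, where 2.96% of all genes tested were called higher. Top2a went from 159, 146 and 155 CPM to 255, 284 and 220, a log2 fold change of 0.72 ± 0.15 (adjusted p = 0.0212). Ncapd2 rose by log2 0.74 ± 0.15, Ncapg by 0.70 ± 0.13, Ncapg2 by 0.67 ± 0.15 and Ncaph2 by 0.37 ± 0.10. The core subunits had log2 values of 0.64 ± 0.20 (Smc2) and 0.42 ± 0.15 (Smc4) and did not pass, nor did Ncaph at 0.52 ± 0.15 (adjusted p = 0.0557) or Ncapd3 at 0.28 ± 0.14. The 3 Trp53+/- libraries lay above the 3 Trp53+/+ libraries for all members but Top2b, 9 of 10, where 21.4% of all genes tested did so. With Xist as a covariate 1 member, Ncapg, was called (log2 0.67, adjusted p = 0.0409), as were 137 of all genes against 805 as reported. The count of members ranged from 0 to 6, and that of all genes from 17 to 553, over the libraries left out, with 0 members when the second Pole4-/- Trp53+/- library, or the second or the third Pole4-/- Trp53+/+ library, was the one removed, and 3 for the first Pole4-/- Trp53+/+ library. Split by sex, the 9 genes other than Top2b were all higher in Trp53+/- cells, by log2 0.17 to 0.72 in 2 female libraries against 1 and by 0.34 to 0.76 in 1 male library against 2, values that have no test with 1 library on a side.

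In Pole4+/+ cells no member was called between Trp53+/- and Trp53+/+ (0.904% of all genes tested were called in either direction). Of the 10 members, 1 had an unadjusted p under 0.05, as did 1610 of all 15710 genes. The largest log2 value was that of Ncapd2, 0.29 ± 0.15 (adjusted p = 0.546), and Top2a was at 0.21 ± 0.15. The Trp53+/- libraries here were all male and the Trp53+/+ libraries all female, so that genotype and sex cannot be told apart in this comparison.

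The loss of both copies of Trp53 in Pole4-/- cells gave the largest median difference of the comparisons made. All members but Top2b, 9 of 10, were called higher than in Pole4-/- Trp53+/+ cells, where 21.8% of all genes tested were called higher, and the median log2 fold change of the 10 was 1.50 beside -0.02 for all genes. The 3 Trp53-/- libraries lay above the 3 Trp53+/+ libraries for the same 9 genes, as they did for 28.5% of all genes tested. Top2a rose from 159, 146 and 155 CPM to 470, 472 and 530, a fold change of 3.20 (log2 1.68 ± 0.15, adjusted p = 2.71e-06). Some markers of cell types moved in the same comparison. Both epithelial markers that were tested were called higher, Krt18 by log2 2.04 ± 0.63 (adjusted p = 0.0173) and Krt8 by 4.59 ± 0.92, with the 5 epithelial markers summing to 4.19 to 20.4 CPM against 2.10 to 2.68. Of 5 skeletal muscle markers 1 was called lower and 0 higher, while 3 had positive values (median log2 0.65). The one called was Des, an intermediate filament gene of muscle (log2 -1.40 ± 0.33, edgeR adjusted p = 0.00337), which has the highest median level of the 5 over all libraries (33.7 CPM, the others at most 1.10). The muscle sums were 22.5 to 31.4 CPM against 49.0 to 68.0. Of 10 fibroblast markers 5 were called lower and 1 higher (median -0.75). Of the neuron markers Tubb3 was called higher (0.57 ± 0.17), with neuron sums of 64.1 to 87.3 CPM against 52.7 to 61.5. The part of these shifts in the members' differences was not tested.

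Among the condensin genes, Ncapg2 rose from 30.4, 29.6 and 28.2 CPM to 86.4, 91.6 and 105 (log2 1.68 ± 0.15, adjusted p = 2.79e-06). Ncapg rose from 24.3, 25.2 and 21.8 to 72.1, 68.1 and 82.5 (log2 1.64 ± 0.13, adjusted p = 7.91e-07). Smc2 rose from 63.1, 62.9 and 70.7 to 189, 186 and 221 (log2 1.60 ± 0.20, adjusted p = 2.89e-05). Ncapd2 rose by log2 1.59 ± 0.15, Smc4 by 1.41 ± 0.15 and Ncaph by 1.29 ± 0.15. The lowest values among those called were those of the condensin II subunits Ncapd3, at 1.09 ± 0.14, and Ncaph2, which rose from 44.5, 43.1 and 40.02 CPM to 74.1, 72.7 and 76.6 (log2 0.81 ± 0.10, adjusted p = 2.03e-05).

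The count of 9 held without any one library, with Xist as a covariate and under each of the other settings tried. Split by sex, the differences of the 9 genes ran from log2 0.76 to 1.70 in 2 female libraries against 1 and from 0.81 to 1.66 in 1 male library against 2, again with 1 library on a side and no test. Against Trp53+/- rather than Trp53+/+ cells, Trp53-/- cells without Pole4 were also higher for 9 members, all but Top2b, where 6.58% of all genes tested were called higher. Top2a was at log2 0.96 ± 0.15 (adjusted p = 0.00132) and Ncapg2 at 1.00 ± 0.15, while Ncaph2 was again the lowest of those called, at 0.44 ± 0.09. For all 9 the Trp53-/- libraries lay above the Trp53+/- libraries, as they did for 19.3% of all genes tested. The shares of ribosomal RNA did not overlap between these groups, at 24.7% to 30.0% in Trp53-/- and 3.75% to 15.5% in Trp53+/- libraries. Here 3 of the 10 fibroblast markers were called lower (median log2 of the 10 at -0.35) and 1 of the 2 epithelial markers tested, Krt8, higher (2.77 ± 0.73). Of the 5 muscle markers Des was called lower (-1.40 ± 0.32) and 4 had positive values (median 1.74), with muscle sums of 22.5 to 31.4 CPM against 46.9 to 79.5. The part of these shifts was not tested. With library totals in place of TMM 4 members were called in this comparison, and with ribosomal RNA genes left out of TMM 9 were. Of all genes 1252 were called (87 higher) with library totals and 2027 (953 higher) without ribosomal RNA genes. As reported they were 1963 (1034 higher).

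In Pole4+/+ cells 6 of the 10 members were higher with the same loss of Trp53, where 2.23% of all genes tested were called higher. Ncapd2 was at 88.7, 93.0 and 67.6 CPM in Trp53+/+ libraries and at 109, 144 and 164 in Trp53-/- libraries (log2 0.74 ± 0.15, adjusted p = 0.00852). All 3 condensin II subunits were called: Ncapd3 rose by log2 0.64 ± 0.13, Ncapg2 by 0.61 ± 0.15 and Ncaph2 by 0.54 ± 0.09. Top2a rose by 0.58 ± 0.15 (adjusted p = 0.0350) and Ncapg by 0.57 ± 0.13. Smc2 (0.55 ± 0.19), Ncaph (0.51 ± 0.15) and Smc4 (0.49 ± 0.15) did not pass. Every Trp53-/- library lay above every Trp53+/+ library for 5 members, where 8.24% of all genes tested did so. In the same comparison 1 of the 5 muscle markers, Des, was called lower (-1.45 ± 0.33), while the other 4 had positive values that did not pass (median of the 5 at 1.69). Of the 10 fibroblast markers 1, Pdgfra, was called higher (2.52 ± 0.50), and 5 had positive values (median 0.09). Muscle marker sums were 21.1 to 26.5 CPM in Trp53-/- and 41.5 to 71.2 in Trp53+/+ libraries, and neuron marker sums 66.5 to 87.6 and 49.1 to 57.9. Their part in the members' differences was not tested.

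The Pole4+/+ Trp53-/- libraries spread widely. The first of them was near the Pole4+/+ Trp53+/+ level for several members, at 102 CPM for Smc2 against 190 and 193 in the other two, and at 171 for Smc4 against 271 and 245. Without that library 9 members were called against Trp53+/+ cells, with log2 values of 0.60 to 0.86, while calls over all genes went from 723 to 2700. With the third of the Pole4+/+ Trp53+/+ libraries removed the count was 2, with 325 of all genes called. It was 3 with the second of them removed (406 of all genes), or the second or the third Trp53-/- library (478 and 649). With library totals in place of TMM it was 1, with 192 of all genes. When only the 6 libraries compared entered the fit it was 0, with 90 of all genes. Against Pole4+/+ Trp53+/- cells edgeR called no member (and 0.579% of all genes tested), with 9 members at an unadjusted p under 0.05, as were 1462 of all 15710 genes. DESeq2 called 0 members there, with 208 of all genes, and limma voom with quality weights 8, with 1193 of all genes. Leaving out the first Pole4+/+ Trp53-/- library gave 9 calls there, with log2 values of 0.39 to 0.73, while calls over all genes went from 91 to 1501. The Trp53-/- libraries were all female and the Trp53+/- libraries all male, so that here too genotype and sex cannot be told apart.

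**Figure D3:**
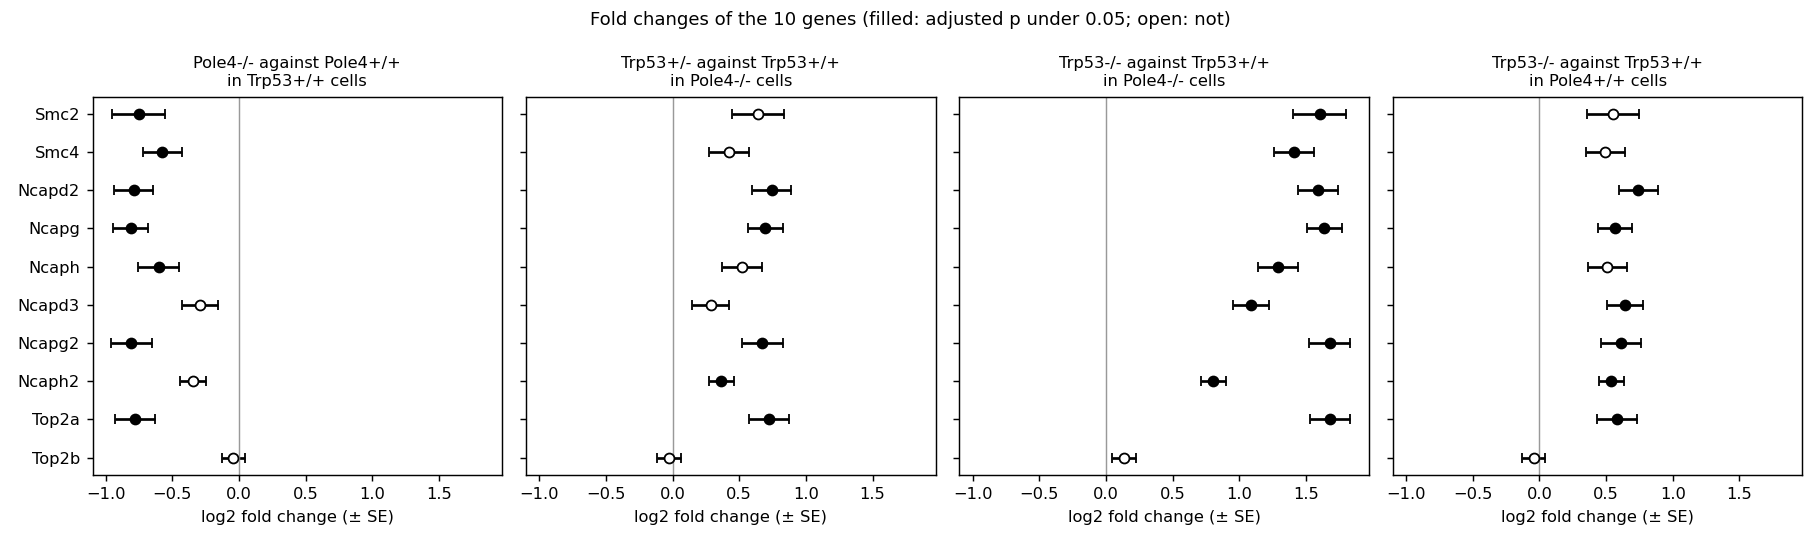
Log2 fold changes (edgeR; points, with bars of ± 1 SE) of the 10 genes in 4 comparisons, filled where the adjusted p was under 0.05. For the 9 genes other than Top2b, values are negative for Pole4 loss in Trp53+/+ cells, positive for Trp53 loss and largest for Trp53-/- against Trp53+/+ in Pole4-/- cells (up to 1.68). Those of Top2b are near 0 throughout.

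The difference between the 2 effects of Trp53 loss was tested as an interaction. For 3 members the difference between Trp53-/- and Trp53+/+ cells was larger in Pole4-/- than in Pole4+/+ cells, where 0.178% of all genes tested were called in that direction. Ncapg had an interaction of log2 1.07 ± 0.18 (adjusted p = 0.0313), Top2a of 1.10 ± 0.21 and Ncapg2 of 1.07 ± 0.21 (both adjusted p = 0.0486). Smc4 (0.92 ± 0.21, adjusted p = 0.0503), Ncapd2 (0.85 ± 0.21, 0.0524), Smc2 (1.05 ± 0.28, 0.0578) and Ncaph (0.78 ± 0.21, 0.0611) narrowly missed the threshold. Ncapd3 was at 0.45 ± 0.19 and Ncaph2 at 0.27 ± 0.13. The count was 7 with DESeq2, which called 1791 of all genes against 52 with edgeR. With Xist as a covariate it was 0, as was that of all genes, at log2 values close to those above (Ncapg 1.04, Top2a 1.09, Ncapg2 1.06, adjusted p of at least 0.0678). Over the libraries left out it ranged from 0 to 8, and that of all genes from 0 to 3242. It was 0 without any one of the 3 Pole4-/- Trp53+/+ or the 3 Pole4-/- Trp53-/- libraries, or without the first or the second Pole4+/+ Trp53+/+ library.

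In Trp53+/- and in Trp53-/- cells edgeR called almost no gene between Pole4-/- and Pole4+/+, and neither the members nor Pole4 itself passed. Pole4 was at log2 -0.97 ± 0.19 in Trp53+/- cells and -0.93 ± 0.19 in Trp53-/- cells, with edgeR adjusted p-values of 0.260 and 0.300. In Trp53+/- cells 0 of the 10 were called with edgeR and 0 with DESeq2 or limma. With edgeR 1 had an unadjusted p under 0.05, as did 866 of all 15710 genes. Of all genes tested edgeR called 0.00637%, or 1 gene, DESeq2 called 43 genes and limma 246. The 10 log2 values were all negative, from -0.34 ± 0.15 for Ncapd2 to -0.06 ± 0.09 for Top2b. In Trp53-/- cells again 0 were called with any of these tools. With edgeR 1 had an unadjusted p under 0.05, as did 1636 of all 15710 genes. Of all genes tested edgeR called 0.00637%, while DESeq2 called 29 genes and limma 1. There 9 of the 10 values were positive, up to 0.34 ± 0.15 for Smc4, and all 10 were negative with library totals in place of TMM, a scaling that moved the median of all genes to -0.44 in this comparison. The shares of ribosomal RNA did not overlap between its groups, at 24.7% to 30.0% in Pole4-/- and 1.82% to 13.1% in Pole4+/+ libraries. Their part was not tested. These comparisons share their libraries with those of Trp53 loss above.

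Top2b stood apart from the other 9. Its values were 235, 235 and 214 CPM in Pole4+/+ Trp53+/+ cells, 209, 242 and 215 in Pole4-/- Trp53+/+ cells, and 247, 251 and 233 in Pole4-/- Trp53-/- cells. Over all 18 libraries it lay between 202 and 251 CPM, and the ranges of all neighboring genotypes overlapped. It was called in none of the comparisons, the interaction included, with log2 values from -0.06 ± 0.09 to 0.18 ± 0.12. The ratio of Top2a to Top2b, each per kilobase, was therefore set mostly by Top2a. It was 2.06, 1.86 and 1.67 in Pole4+/+ Trp53+/+ libraries, 1.24, 0.976 and 1.17 in Pole4-/- Trp53+/+ libraries and 3.09, 3.05 and 3.69 in Pole4-/- Trp53-/- libraries. These 3 groups did not overlap. In an exact two-sided permutation test the Pole4-/- Trp53+/+ libraries gave p = 0.1 against each of the other 2 groups, the smallest value that 3 against 3 libraries can give. Of 16 such tests over 4 ratios none could pass, and the adjusted p of each that reached 0.1 was 0.16.

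The RNAs of the 2 sets of non-SMC subunits were also compared within each library, as the sum of Ncapd2, Ncapg and Ncaph over the sum of Ncapd3, Ncapg2 and Ncaph2, per kilobase. In Pole4+/+ cells it was 1.23, 1.25 and 1.14 with Trp53+/+ and 1.21, 1.29 and 1.31 with Trp53-/-, groups that overlap (log2 difference 0.08, exact two-sided permutation p = 0.3). In Pole4-/- cells it was 0.971, 0.988 and 0.970 with Trp53+/+, 1.14, 1.22 and 1.14 with Trp53+/- and 1.33, 1.297 and 1.42 with Trp53-/-. In Pole4-/- cells the 3 genotypes did not overlap, with log2 differences from Trp53+/+ of 0.25 for Trp53+/- and 0.46 for Trp53-/- (exact two-sided permutation p = 0.1 for each). This ratio was thus lowest in the Pole4-/- Trp53+/+ libraries, below all 15 others. Its largest terms were Ncapd2 and Ncaph2, at 13.3 and 12.9 CPM per kilobase in Pole4+/+ Trp53+/+ cells. With loss of Trp53 in Pole4-/- cells Ncapg2 of condensin II rose much as Ncapg did (log2 1.68 and 1.64). Ncapd3 (1.09) and Ncaph2 (0.81) rose less. A ratio of such RNA sums does not measure the share of either complex. The ratio of Smc2 to Smc4, which are equal partners in the ring, stayed between 0.550 and 0.747 over the 18 libraries. It was lower in Pole4-/- Trp53+/+ than in Pole4+/+ Trp53+/+ libraries by log2 0.17, without overlap (exact permutation p = 0.1).

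**Figure D4:**
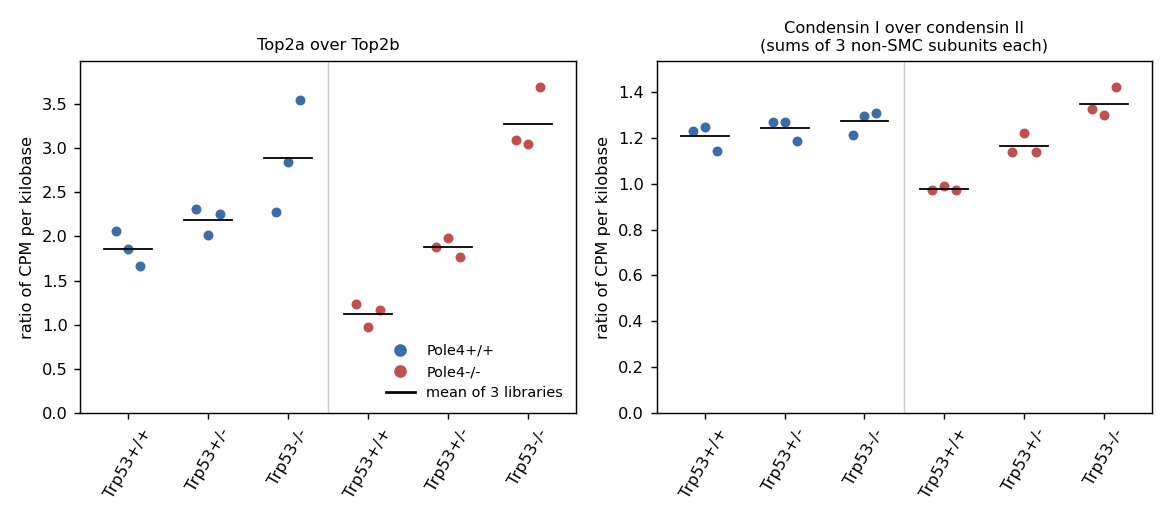
Ratios of CPM per kilobase in each library (points; bar, mean of 3) for Top2a over Top2b on the left and for the condensin I over the condensin II subunits on the right, by genotype, with axes from 0. Both ratios are lowest in Pole4-/- Trp53+/+ cells, with means of 1.13 and 0.976, and highest in Pole4-/- Trp53-/- cells, with means of 3.27 and 1.35.

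Over the 18 libraries the 9 genes other than Top2b went together. Pearson's r of log2 CPM, given as a description over libraries that share genotypes, ran from 0.916 to 0.994 over their 36 pairs, and from 0.301 to 0.495 over the 9 pairs with Top2b. The genes whose pattern was most like that of Top2a were Bub1, a kinase of the spindle checkpoint, and Ncapg2 (r = 0.994 each), followed by Kif11, a spindle motor (0.991). Ncapg2 was in turn most like Top2a, Ccnb1, which encodes cyclin B1, and Lbr, a receptor of the inner nuclear membrane. For Smc2 they were Atad2, Pclaf, a PCNA-binding factor, and Cdk1. Smc4 was most like Ndc80, a kinetochore subunit, Ttk, another checkpoint kinase, and Depdc1a.

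The remaining condensin genes were compared in the same way. Ncapg was most like Fignl1, Ncapg2 and Pola1, a subunit of DNA polymerase alpha, Ncaph like Racgap1, Cdca8 and Nek2, and Ncapd2 like Pimreg, Tmpo and Racgap1. Ncapd3 was most like Dtl, Cdc7 and Cdca2 (r of 0.978 to 0.984), the first of which acts in S phase and the second of which is the kinase that fires replication origins. Ncaph2 was most like Ncapd2, Ccnb2 and Pimreg. For Top2b the likeness was lower: the first was Nrd1 with r = 0.856.

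Lists of related genes were counted in the same comparisons. Of 15 condensin regulators and mitotic chromosome partners, 13 were called higher and 2 lower in Pole4-/- Trp53-/- than in Pole4-/- Trp53+/+ cells, where 21.8% of all genes tested were called higher and 20.8% lower, with a median log2 fold change of 1.65. The highest was Sgo1, which protects cohesin at centromeres, at 1.99 ± 0.20. The 2 lower ones were Phf8, a histone demethylase, at -0.64 ± 0.09, and Akap8l, at -0.50 ± 0.14, the latter named after its value was seen. With Pole4 loss in Trp53+/+ cells 8 of the 15 were called lower and 0 higher (median -0.84), where 2.7% of all genes tested were called lower. With Trp53 loss in Pole4+/+ cells 1 was called higher (median 0.53), where 2.23% of all genes tested were. The same shares over all genes tested apply to the lists that follow. Among 22 G2/M genes 21 were called higher in the first of these comparisons (median 1.62), from Ckap2, which did not pass at 0.21 ± 0.11, to Ccna2, which encodes cyclin A2, at 1.89 ± 0.22. In the second, 20 of the 22 were called lower (median -0.83), and in the third 7 were called higher (median 0.59). The 20 S-phase genes gave 20 higher (median 1.54), 11 lower (median -0.82) and 3 higher (median 0.53) in the same 3 comparisons. The calls for Pole4 loss depend on the fit in these lists too, since with Xist as a covariate 3 genes of the whole table were called in that comparison, 2 of them higher, and with a library left out between 8 and 799. In the first comparison Cdc6, a loader of replication origins, was highest at log2 2.03 ± 0.28 and Rfc2, a subunit of the PCNA clamp loader, lowest at 0.84 ± 0.13. The list of condensin regulators and mitotic chromosome partners shares 5 of its genes with the G2/M list, so the counts of these lists are not independent. The median of the 10 members, 1.50, was near that of both cell-cycle lists, and the part of cell-cycle composition in these differences was not tested.

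The related SMC complexes and the other topoisomerases had smaller medians. Of 11 genes of cohesin and SMC5/6, 10 were called higher in Pole4-/- Trp53-/- than in Pole4-/- Trp53+/+ cells, with a median of 0.71, where 21.8% of all genes tested were called higher and 20.8% lower. They ran from Nsmce3, which did not pass at 0.30 ± 0.17, to Rad21, the cohesin kleisin, at 1.09 ± 0.13. With Pole4 loss in Trp53+/+ cells 0 of the 11 were called by edgeR, the only tool run on these lists, where 2.7% of all genes tested were called lower. Of the 11, 8 had an unadjusted p under 0.05, as did 4101 of all 15710 genes. Of 9 other topoisomerases and genes that repair topoisomerase adducts, 7 were called higher and 1 lower in the first comparison (median 0.58), from Top3b, a type I topoisomerase, at -0.77 ± 0.12, to Blm, the helicase that works with topoisomerase III alpha, at 1.65 ± 0.18.

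Several members share sequence with neighbors, which limits how their counts can be read. Exons of Ncapg overlap those of Lcorl on the opposite strand, those of Ncaph2 overlap Sco2 and Tymp, and those of Top2b overlap Rarb. The library kit does not mark strand and the counting strand is not given in the sources used here, so that reads from these stretches could be assigned to either gene. Of the 100-base stretches of each gene's annotated transcripts, 17.1% of those of Ncaph2, 10.2% of those of Ncapg, 10.1% of those of Top2b and 2.08% of those of Ncapd2 also occur in transcripts of other genes. The share was 0.252% for Top2a, 0.121% for Ncapg2 and 0 for Smc2, Smc4, Ncaph and Ncapd3, and no stretch was shared between members.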

How the data were processed

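Bulk RNA-seq of 18 MEF libraries was analysed. Per the labels and methods, the authors trimmed reads, aligned them with STAR 2.5.2 to GRCm38 and estimated expected counts per gene with RSEM 1.3.0; the deposited values are these expected counts (6.14% not whole), with no scaling. Here they were rounded, and genes were filtered by edgeR's filterByExpr, which left 15710. With edgeR 4.0.16 (R 4.3.3), 1 mean per genotype was fitted over all 18 libraries after TMM scaling, with robust quasi-likelihood F-tests and Benjamini-Hochberg adjustment over all genes tested. A gene is called at an adjusted p under 0.05. The SE is the log2 fold change over the square root of F. Log2 CPM used a prior count of 2. The fit was also run on simulated counts with known changes, and the outcome is not reported here. Symbols and exon lengths come from GENCODE M21 (GRCm38), which matched 51719 of 51912 identifiers, and promoters from RefSeq. The members, gene lists and tests were chosen with earlier results of these data known. Named genes are the 10 members, Trp53, Pole4 and Cdkn1a, the highest and lowest gene of each list of related genes for Trp53-/- against Trp53+/+ in Pole4-/- cells, and the 3 genes most like each member. Markers of cell types are named outside this rule, as checks chosen after their values were seen. Alternatives were DESeq2 1.42.0, limma 3.58.1 (voom with quality weights), 3 other scalings, 2 other filters, a stricter threshold, only the libraries compared, the replicate number as a block, Xist as a covariate and each library left out. Replicate numbers are not said to mark a shared litter or day. Protein sequences were not used here.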

Additional observations from a re-analysis of the deposited data

Results flagged for a closer look

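The difference between Trp53-/- and Trp53+/+ cells was larger in Pole4-/- than in Pole4+/+ cells for 3 genes, by the edgeR test of that difference itself: log2 1.07 for Ncapg, 1.07 (1.068) for Ncapg2 and 1.10 (1.096) for Top2a, each with an adjusted p under 0.05. The 3 comparisons share the Pole4-/- Trp53+/+ libraries, and 0 of the 3 passed when any one of those was left out. With Xist as a covariate the values were 1.04, 1.06 and 1.09 in the same order, with adjusted p-values of 0.0678 to 0.0776, and no gene of the whole table was called by edgeR (52 as reported, and 1791 with DESeq2).

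The first Pole4+/+ Trp53-/- library carried Xist and also 7.20 CPM of reads from Y-linked genes, where the other female libraries held at most 0.302 CPM and the male libraries between 166 and 202. The same library had the lowest Pole4 level among the Pole4+/+ libraries (14.2 CPM). It stood below the other Pole4+/+ Trp53-/- libraries in every member, Top2b included (209.4 CPM against 243.5 and 211.6).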

How the results depend on the processing

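The 9 genes called higher in Pole4-/- Trp53-/- than in Pole4-/- Trp53+/+ cells numbered 9 under every alternative run, and from 9 to 9 with a library left out. The other counts depended more on the processing, and the causes were not tested beyond fewer libraries or genes in a fit. Members called for Trp53+/- against Trp53+/+ in Pole4-/- cells, 5 as reported, numbered 8 with DESeq2, 8 with library totals, 8 with only the libraries compared, 8 with limma voom, 1 with Xist as a covariate, 0 at an adjusted p under 0.01 and from 0 to 6 with a library left out. For Trp53-/- against Trp53+/+ in Pole4+/+ cells, 6 as reported, they numbered 8 with DESeq2, upper-quartile scaling or a mean of at least 50 counts, 9 with limma voom, 1 with library totals, 0 with only the libraries compared, 2 at an adjusted p under 0.01, 6 under the others, and from 2 to 9 with a library left out. Calls over all genes, 723 as reported, were 1312, 819, 835, 2946, 192, 90 and 265 in the same order for the alternatives named. With a library left out they ran from 325 to 2700. For Pole4-/- against Pole4+/+ in Trp53+/+ cells, 7 as reported, they numbered 9 with limma voom, 7 with upper-quartile scaling, 8 with DESeq2 and under the 6 other alternatives not named here, 0 with Xist as a covariate, 0 at an adjusted p under 0.01 and from 0 to 8 with a library left out. For the interaction, 3 as reported, they numbered 7 with DESeq2, 7 with limma voom, 6 with no filter, 6 with a mean of at least 50 counts, 5 with upper-quartile scaling, 5 with ribosomal RNA genes left out of TMM, 0 with library totals, 0 with only the libraries compared, 0 with Xist as a covariate, 0 at an adjusted p under 0.01, and from 0 to 8 with a library left out. For Trp53-/- against Trp53+/- the count was 4 in Pole4-/- cells with library totals (9 as reported, 9 to 9 with a library left out) and 8 in Pole4+/+ cells with limma voom (0 as reported, 0 to 9 with a library left out). The remaining comparisons gave 0 under every alternative run.

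The replicate numbers were not taken to pair the libraries, since no label ties them to a litter or day. The deviations of same-numbered libraries were more alike, with a median r of 0.10 and 22 of 45 pairs above 0.1. Those of different numbers had a median of -0.06, with 16 of 90 pairs above 0.1. In each genotype the library numbered 1 had the most counts. What same-numbered libraries share was not tested. With the replicate number as a block 6 members were called for the interaction, with 548 of all genes against 52 as reported. For Pole4 loss in Trp53+/+ cells 8 members were called, with 896 of all genes against 626. The other comparisons kept the counts of members as reported.

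Of 1760 values of single genes under an alternative, 1498 kept their direction and side of the threshold, 140 lost and 91 gained a call, and 31 that were not called changed sign. Top2b, near 0 throughout, accounts for most. For Trp53-/- against Trp53+/+ in Pole4+/+ cells Top2b was at 0.040 with library totals and 0.0098 with voom. For Trp53+/- against Trp53+/+ in Pole4-/- cells it was at 0.27 with library totals, 0.043 with no filter, 0.0039 with Xist and from -0.072 to 0.044 with a library left out. For Trp53-/- against Trp53+/- it was at -0.17 in Pole4-/- cells with library totals and, in Pole4+/+ cells, at 0.070 with library totals, 0.042 with voom and 0.045 with Xist. For Pole4-/- against Pole4+/+ it was at 0.015 with upper-quartile scaling and 0.0038 with a mean of at least 50 counts in Trp53+/+ cells, from -0.11 to 0.0040 with a library left out in Trp53+/- cells, and at -0.27 with library totals in Trp53-/- cells. For Trp53+/- against Trp53+/+ in Pole4+/+ cells, values with a library left out ran from -0.056 to 0.020 for Top2b, from -0.070 to 0.11 for Smc2 and from -0.0040 to 0.22 for Ncapg2.

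For Pole4-/- against Pole4+/+ in Trp53-/- cells, library totals gave -0.091 for Smc2, -0.054 for Smc4, -0.35 for Ncapd2, -0.15 for Ncapg, -0.24 for Ncaph, -0.26 for Ncapd3, -0.15 for Ncapg2 and -0.087 for Top2a. Each was smaller in size than the median of all genes in that fit, -0.44 (-0.02 as reported). Ncaph2, negative also as reported (-0.08), was at -0.49. Ncapd2 was at -0.068 with voom and from -0.085 to 0.18 with a library left out. Library totals also moved the median of all genes to -0.28 for Pole4 loss in Trp53+/+ cells, where 57 of 2244 calls were then higher against 202 of 626 as reported, to 0.29 for Trp53+/- against Trp53+/+ in Pole4-/- cells (2098 of 2163 against 465 of 805), and to -0.33 for Trp53-/- against Trp53+/- in Pole4-/- cells (87 of 1252 against 1034 of 1963). Libraries of 9535971 counts or more put every member at no fewer than 15.1 CPM, so depth did not limit their detection.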
